A study of Mus musculus with 9 samples.

Results

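The genes described here are 10 genes of the vascular endothelial growth factor (VEGF) axis and of the endothelium, measured in mouse kidney after ligation of the common bile duct. They were taken by name: the ligand Vegfa, the receptors Kdr, Flt1 and Tek, the co-receptor Eng, the surface and junction genes Pecam1, Cdh5, Emcn and Plvap, and the glomerular endothelial gene Ehd3. Each had 1 array feature that carries its symbol alone, so all 10 were measured among 22180 genes. The study asks how the kidney responds when bile flow is blocked, and whether norursodeoxycholic acid (norUDCA), a side-chain-shortened bile acid, changes that response.

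Total kidney RNA was hybridised to 9 whole-transcript arrays, 3 in each group. The sham group was operated on without ligation and sampled at 3 weeks. The ligated group (CBDL) carried a closed common bile duct for 3 weeks. The prefed group (norUDCA_CBDL) received norUDCA for 5 days and was then ligated for 3 weeks. Genotype, strain, sex and age were not stated in the labels, and neither was whether feeding went on after surgery. No sham group given norUDCA was among the samples, so an effect of norUDCA without ligation was not measured. Nothing in the labels says that the arrays of a group came from separate animals, so the p-values speak only for the spread among these samples, which may be technical. Arrays are named by group and label number.

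VEGF-A is secreted mainly by podocytes and tubular cells of the kidney and acts on neighbouring endothelium. KDR (VEGFR2) is the receptor that transmits most of its signal, while FLT1 (VEGFR1) binds VEGF-A tightly, signals weakly and has a soluble form that acts as a decoy. TEK (TIE2) is the angiopoietin receptor that keeps vessels quiescent. In the kidney these genes serve the fenestrated capillaries of the glomerulus and the peritubular capillaries that take up what the tubules reabsorb.

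The starts of Vegfa and of its receptor genes Kdr and Flt1 are shown because the signals of these genes were compared most closely. Each stretch is the 250 bases upstream of a RefSeq start site on GRCm38.p6, read on the strand of the gene. Capitals mark GGGCGG or its reverse complement CCGCCC, the GC box bound by SP-family factors.
Vegfa: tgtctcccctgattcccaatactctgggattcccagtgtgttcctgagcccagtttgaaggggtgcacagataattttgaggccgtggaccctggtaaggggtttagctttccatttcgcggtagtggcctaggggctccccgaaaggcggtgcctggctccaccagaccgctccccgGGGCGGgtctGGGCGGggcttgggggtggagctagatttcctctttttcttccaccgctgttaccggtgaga
Kdr: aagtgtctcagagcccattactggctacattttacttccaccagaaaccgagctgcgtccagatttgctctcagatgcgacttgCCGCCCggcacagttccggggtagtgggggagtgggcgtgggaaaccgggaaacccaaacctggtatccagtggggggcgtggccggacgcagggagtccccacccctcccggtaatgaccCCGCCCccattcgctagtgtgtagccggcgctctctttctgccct
Flt1: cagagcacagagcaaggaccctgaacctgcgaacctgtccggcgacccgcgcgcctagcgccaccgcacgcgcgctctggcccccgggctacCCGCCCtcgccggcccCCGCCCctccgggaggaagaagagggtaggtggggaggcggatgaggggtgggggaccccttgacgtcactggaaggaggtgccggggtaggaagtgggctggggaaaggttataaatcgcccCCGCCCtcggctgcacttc

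The Kdr stretch (chr5:75978456-75978705, minus strand) holds 2 GC boxes, the Flt1 stretch (chr5:147726012-147726261, minus strand) 3, and the stretch before the first listed Vegfa start (chr17:46032378-46032627, minus strand) 2. A GC box on either strand occurs in 32.7% of 32851 promoters of the same length. The core of the hypoxia response element, ACGTG or GCGTG on either strand, is found 2 times before Kdr, 1 time before Flt1 and 0 times in that Vegfa stretch, against 38.6% of all promoters with at least 1. The Vegfa stretch belongs to 1 of 2 listed start sites, and the other holds 2 such cores and 1 GC box. The GGAA core of ETS factors, which regulate many endothelial genes, occurs 4 times before Kdr and 4 times before Flt1. It occurs 6 times in the Vegfa stretch, and is present in 93.4% of all promoters, with a median of 3 matches. GGAA and GCGTG were counted independently of the GC box, so matches may overlap. Stretches were found for 7 of the 10 genes, and those before Eng, Emcn, Tek and Ehd3 hold 0 GC boxes. These matches describe the letters of the sequence and were not tested against the arrays.

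The values are log2 signals, so a difference of 1 is a doubling. Array medians lay between 5.7 and 5.79, and arrays of a group correlated at 0.986 to 0.995 over genes. The kidney markers Umod and Lrp2 averaged 12.7 and 12.3 over the 9 arrays. Arrays sham_159 and CBDL_165 stood apart on the second principal component (13% of the variance), at -34.54 and -22.91 against 3.42 to 12.03 for the others. The Y-linked genes Kdm5d, Eif2s3y and Uty were lower on norUDCA_CBDL_172 (6.46, 7.64 and 7.66) than on any other array (at least 7.89, 8.49 and 9.15). Results on the 10 genes are therefore also given without these 3 arrays where they rest on them.

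After ligation, the ligand and its main receptor both fell. Kdr was 1.87-fold lower and Vegfa 1.35-fold lower in CBDL than in sham kidney. With norUDCA prefeeding both were higher than in CBDL kidney, but leaving out any 1 of 5 arrays ended both of these later calls. Pecam1, Cdh5, Eng and Emcn were higher on every CBDL array than on every sham array, by 1.19-fold to 1.24-fold, without passing the threshold. Of the 10 genes, 2 fell and 0 rose at an adjusted p under 0.05, against 11.5% and 10.3% of all genes (21.8% in either direction). The count called was thus near the share of all genes. At an unadjusted p under 0.05 there were 8 of 10, against 7379 of 22180 genes.

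Vegfa, the ligand, had log2 signals of 10.93, 10.96 and 10.87 on sham_158, sham_159 and sham_160. In CBDL kidney it read 10.49 on each of CBDL_164, CBDL_165 and CBDL_170. The prefed arrays norUDCA_CBDL_172, norUDCA_CBDL_175 and norUDCA_CBDL_179 gave 10.79, 10.96 and 10.92. Every CBDL array lay below every array of the other groups, and the sham and prefed arrays overlapped. The fall from sham to CBDL was -0.43 (SE 0.09, 95% interval -0.63 to -0.24, n = 3 and 3, limma adjusted p = 0.00624). The CBDL signals had an SD of only 0.0025, far smaller than the SD of 0.05 in sham or 0.09 in prefed kidney. The fall kept its call without any single array and without the 3 arrays that stood apart (-0.41, adjusted p = 0.0382), but not after quantile normalization (-0.25, adjusted p = 0.0603).

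Kdr, the receptor that carries most VEGF-A signalling in endothelium, had the largest change of the 10 genes after ligation. Its sham signals were 9.92, 10.06 and 9.88, in array order as above. The CBDL signals were 8.93, 8.87 and 9.34. The prefed signals were 9.66, 9.65 and 9.63. The groups did not overlap in any pair, with sham highest, prefed kidney between and CBDL lowest, and the prefed arrays were the closest together. From sham to CBDL Kdr fell by 0.90 (SE 0.13, 95% interval -1.19 to -0.61, adjusted p = 0.000872). The difference was called under every alternative tried, with values from -1.05 to -0.76 and the weakest adjusted p of 0.0248 when the 3 arrays that stood apart were left out. CBDL_170 had the highest Kdr signal of its group, and the other CBDL arrays were close together.

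**Figure D1:**
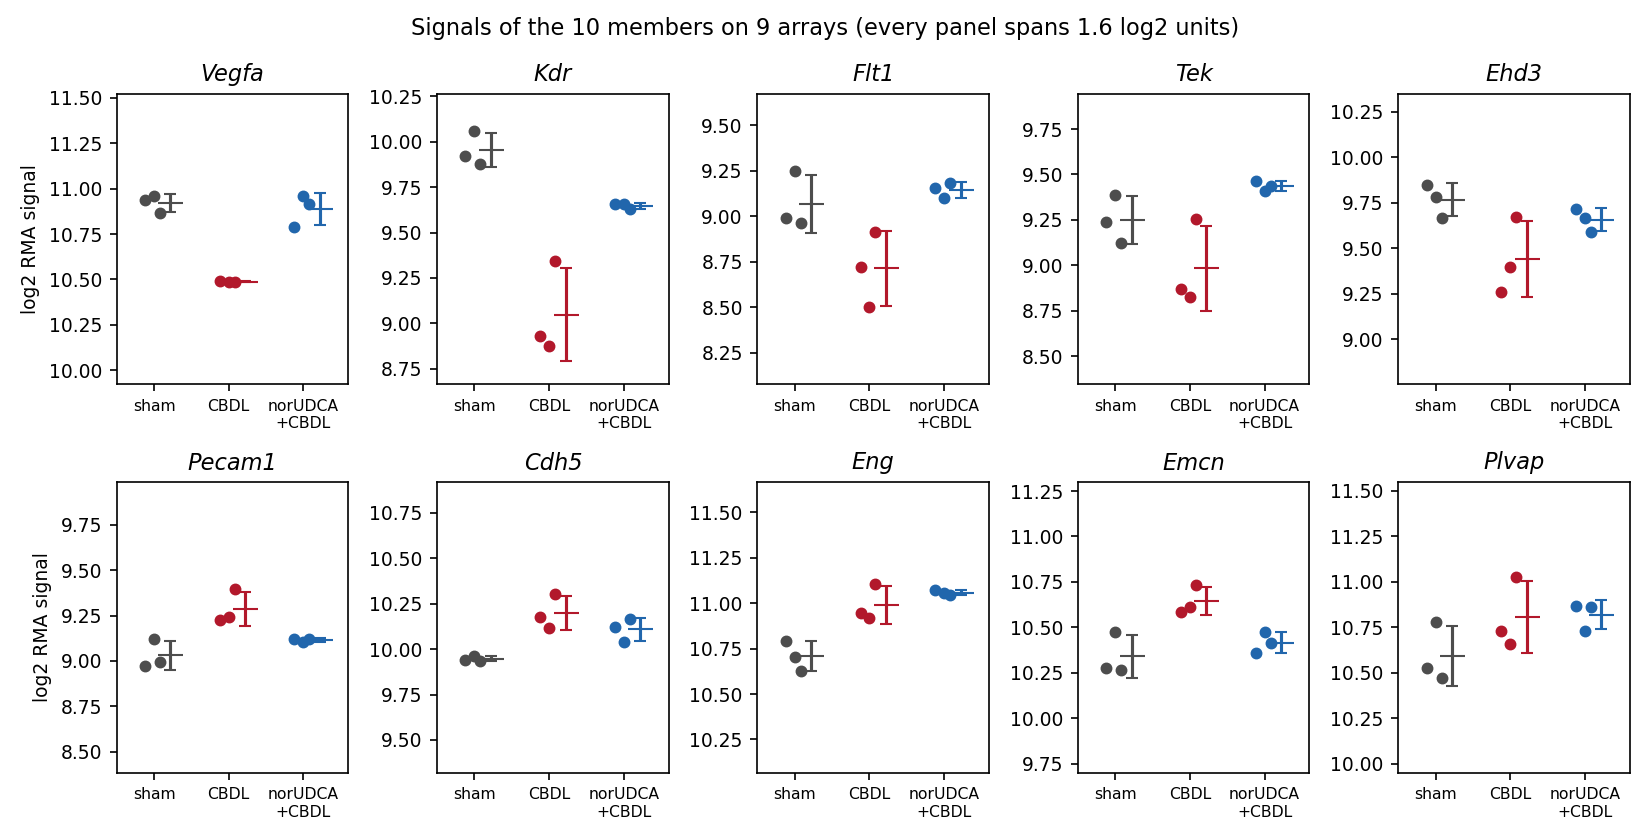
Log2 signal of each of the 10 genes on the 9 arrays, with 1 panel per gene, every panel spanning the same 1.6 log2 units. Points are arrays, bars are group means, and groups run from sham through CBDL to norUDCA_CBDL. The Kdr points separate into 3 levels, from 9.88 to 10.06 in sham, 8.87 to 9.34 in CBDL and 9.63 to 9.66 in prefed kidney, while those of Vegfa drop to 10.49 in CBDL alone.

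Flt1, the decoy-like receptor, read 8.99, 9.25 and 8.96 in sham kidney. In CBDL kidney it read 8.72, 8.50 and 8.91, and in prefed kidney 9.16, 9.10 and 9.18. All CBDL arrays were below all sham arrays, and CBDL_170 lay just below the lowest sham array. The difference of -0.35 (SE 0.13, 95% interval -0.64 to -0.07) missed the threshold (adjusted p = 0.0751), and it shrank to -0.16 (adjusted p = 0.44) without the 3 arrays that stood apart.

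Tek, the angiopoietin receptor, read 9.24, 9.39 and 9.12 in sham and 8.87, 8.83 and 9.25 in CBDL kidney. Its prefed signals were 9.46, 9.41 and 9.44. CBDL_164 and CBDL_165 were the lowest arrays, while CBDL_170 lay among the sham arrays. The CBDL minus sham difference was -0.27 (SE 0.13, 95% interval -0.55 to 0.02, adjusted p = 0.179).

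Ehd3, an endocytic recycling protein whose kidney expression marks glomerular endothelium, read 9.85, 9.78 and 9.67 in sham, 9.26, 9.40 and 9.67 in CBDL and 9.72, 9.67 and 9.59 in prefed kidney. Here too CBDL_170 reached the lowest sham value and the other CBDL arrays were lower. The difference from sham was -0.32 (SE 0.12, 95% interval -0.59 to -0.06, adjusted p = 0.0833). Without CBDL_170 the number of genes that fell was 5: Kdr, Vegfa, Flt1 (-0.46, adjusted p = 0.0346), Tek (-0.40, adjusted p = 0.0322) and Ehd3 (-0.44, adjusted p = 0.0213). No other single array left out gave a call for Flt1, Tek or Ehd3, with adjusted p up to 0.22, 0.412 and 0.237. Under the other settings the differences were as small as -0.12 for Tek and -0.21 for Ehd3 (adjusted p up to 0.681 and 0.319).

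For the endothelial junction and surface genes, 0 were called after ligation in the reported fit. Pecam1, Cdh5 and Emcn were called as risen with an intensity trend, array weights, quantile normalization or no dim genes. Eng was called as risen under the same settings except array weights. With only the 6 arrays compared, median centring or the mean of a gene's features, none of them was called. Pecam1 (CD31), an adhesion molecule at endothelial cell contacts, read 8.97, 9.12 and 8.996 in sham and 9.23, 9.24 and 9.40 in CBDL kidney, with no overlap. The difference was 0.26 (SE 0.09, 95% interval 0.05 to 0.46, adjusted p = 0.0769). Prefed kidney lay within the sham range at 9.12, 9.10 and 9.12.

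Cdh5 (VE-cadherin), the adherens junction cadherin of endothelium, read 9.94, 9.96 and 9.94 in sham and 10.18, 10.12 and 10.30 in CBDL kidney. All CBDL arrays were higher than all sham arrays. The difference was 0.25 (SE 0.09, 95% interval 0.05 to 0.46, adjusted p = 0.0791). The prefed signals, 10.12, 10.04 and 10.17, overlapped those of CBDL and lay above those of sham.

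Eng (endoglin), the co-receptor for BMP9 and TGF-beta ligands on endothelium, read 10.79, 10.70 and 10.63 in sham and 10.94, 10.92 and 11.11 in CBDL kidney. Prefed kidney read 11.07, 11.06 and 11.04, within the CBDL range, so that Eng was high in both ligated groups. The CBDL minus sham difference was 0.28 (SE 0.09, 95% interval 0.07 to 0.49, adjusted p = 0.0595).

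Emcn (endomucin), a sialoglycoprotein of capillary and venous endothelium, read 10.28, 10.48 and 10.26 in sham, 10.59, 10.61 and 10.73 in CBDL and 10.36, 10.47 and 10.42 in prefed kidney. The CBDL arrays were above all others, and the prefed arrays lay inside the sham range. Its difference of 0.30 (SE 0.10, 95% interval 0.08 to 0.52) was the closest of the 4 to the threshold (adjusted p = 0.0522), and without sham_159 it passed (0.37, adjusted p = 0.0248). Plvap, which forms the diaphragms of fenestrated capillaries, overlapped between groups, with 10.52, 10.78 and 10.47 in sham, 10.73, 10.66 and 11.03 in CBDL and 10.87, 10.73 and 10.86 in prefed kidney (CBDL minus sham 0.21, adjusted p = 0.281).

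Between CBDL and sham, 7 of the 10 genes had arrays that did not overlap, against 35.6% of all genes. Kdr, Vegfa and Flt1 were lower (20% of all genes), and Pecam1, Cdh5, Eng and Emcn were higher (15.6%). The median change of the 10 genes was -0.03, beside -0.059 for all genes. Centring each array on its median moved the median of all genes from -0.059 to -0.164 and the split of called genes from 2293 up and 2551 down to 1945 up and 4547 down. Under that scaling Kdr, Vegfa, Flt1, Tek and Ehd3 fell and 0 of the 10 genes rose. After quantile normalization only Kdr fell and Pecam1, Cdh5, Eng, Emcn and Plvap rose. The signs of these 10 differences were the same under both scalings, and Kdr was the gene called under both in the same direction.

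**Figure D2:**
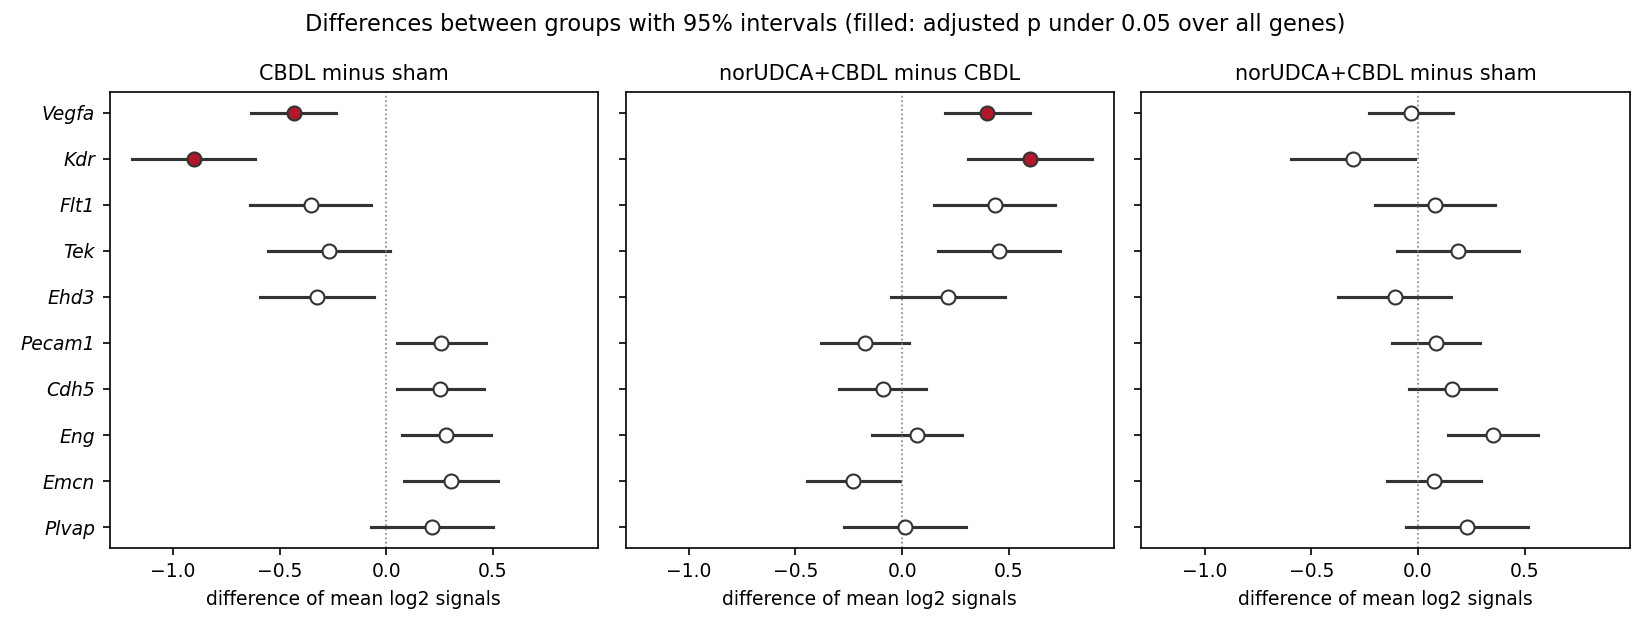
Difference of mean log2 signals with its 95% interval for each of the 10 genes in the 3 comparisons, filled where the adjusted p over 22180 genes is under 0.05. Kdr (-0.90) and Vegfa (-0.43) are the filled points in CBDL minus sham, both are filled on the other side of 0 in norUDCA_CBDL minus CBDL (0.60 and 0.40), and no point is filled in norUDCA_CBDL minus sham.

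Whole kidney RNA was measured, so fewer endothelial cells and less RNA per cell cannot be told apart. Differences within an array show whether 2 genes changed unequally, whatever constant is added to the log2 signals of an array. The difference of 2 probe signals has no meaning as a level, and only its change between groups is read. Kdr minus Cdh5 was -0.02, 0.09 and -0.06 on the sham arrays, -1.25, -1.24 and -0.96 on the CBDL arrays and -0.46, -0.38 and -0.54 on the prefed arrays. It was lowest in every CBDL array, intermediate in every prefed array and highest in every sham array. The change from sham to CBDL was -1.15, the change from CBDL to prefed kidney was 0.69, and prefed minus sham was -0.47.

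Setting Kdr against Pecam1 gave the same order, with 0.95, 0.94 and 0.88 in sham, -0.30, -0.37 and -0.05 in CBDL and 0.54, 0.55 and 0.51 in prefed kidney. The changes were -1.16 from sham to CBDL, 0.77 from CBDL to prefed and -0.39 from sham to prefed kidney. Against Flt1, the other VEGF-A receptor, Kdr read 0.93, 0.81 and 0.91, then 0.20, 0.37 and 0.43, then 0.50, 0.56 and 0.44, and the changes were -0.55, 0.16 and -0.38. Kdr thus changed by more than Flt1 after ligation within these arrays. All 9 changes had an exact two-sided permutation p of 0.1, the smallest that 3 arrays against 3 can give. The groups did not overlap in any of them. From sham to CBDL the outcome against Cdh5 and Pecam1 was fixed in advance, as Kdr and these genes separated in opposite directions. The same holds for Kdr minus Pecam1 from CBDL to prefed kidney and for Kdr minus Cdh5 from sham to prefed kidney. Those tests add no separate support. With 1 array left out, Kdr minus Flt1 between CBDL and prefed kidney ranged from 0.10 to 0.21 and its exact p from 0.1 to 0.2.

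**Figure D3:**
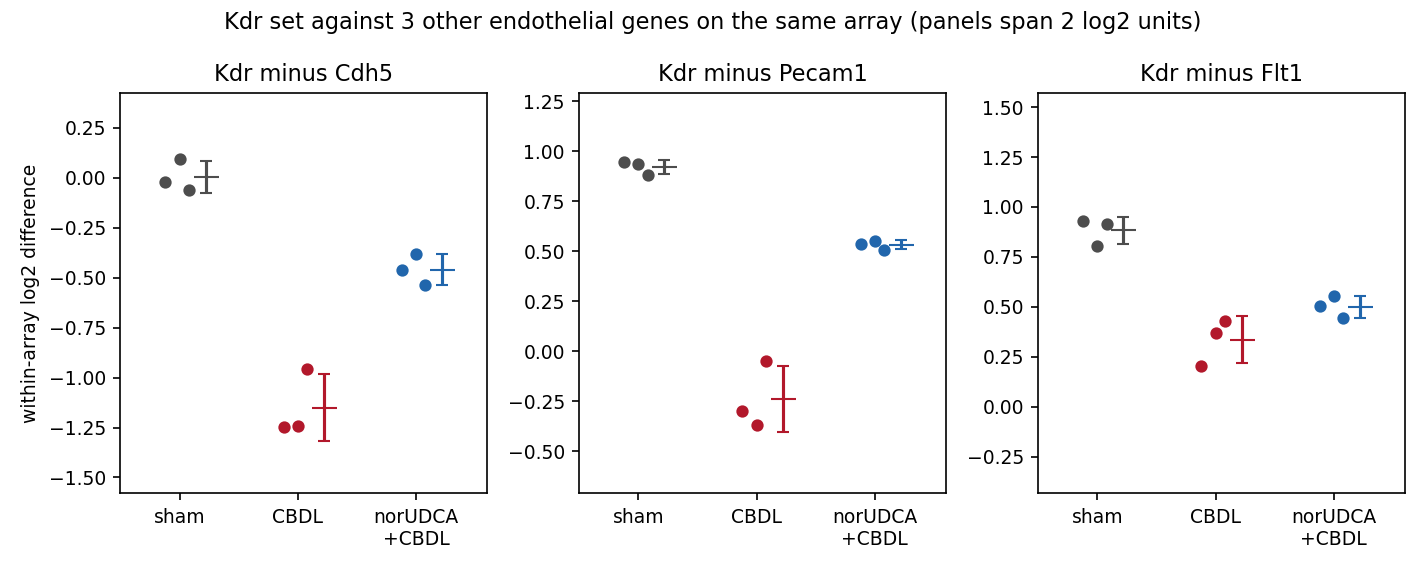
Log2 signal of Kdr minus that of Cdh5, Pecam1 and Flt1 on the same array, 1 panel per partner, each spanning 2 log2 units. Points are the 9 arrays by group and bars are group means. In all 3 panels the CBDL arrays are lowest and the sham arrays highest, with Kdr minus Cdh5 from -0.06 to 0.09 in sham and from -1.25 to -0.96 in CBDL.

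Genes of the endothelium and its signals, with the 10 genes among them, were also taken as lists. Counts of a list after ligation are to be read beside the 10.3% of all genes that rose and the 11.5% that fell. A count of 1 in such a short list is near that background. Of 18 VEGF, angiopoietin and apelin genes, 5 fell and 2 rose after ligation, with a median change of -0.01. Kdr and Vegfa, described above, are among the 5 that fell. Angpt1, the ligand that activates TEK, read 7.46, 7.51 and 7.39 in sham, 6.82, 6.70 and 6.92 in CBDL and 7.10, 7.16 and 7.10 in prefed kidney. The 3 groups did not overlap, and the fall after ligation was -0.64 (SE 0.09, adjusted p = 0.00103). Vegfb, a ligand of FLT1, read 10.21, 10.42 and 10.20 in sham, 9.88, 9.70 and 9.87 in CBDL and 10.35, 10.17 and 10.38 in prefed kidney. Like Vegfa it was lowest on all CBDL arrays and overlapped between the other groups, with a fall of -0.46 (SE 0.11, adjusted p = 0.0136) that was lost under quantile normalization. Apln, the ligand of the apelin receptor, fell by 0.67 (adjusted p = 0.0328), a call that ended without any 1 of 6 arrays (sham_159, sham_160, the 3 CBDL arrays or norUDCA_CBDL_179; adjusted p up to 0.111).

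The genes that rose in this list were receptors. Nrp2, a VEGF and semaphorin co-receptor, read 8.47, 8.32 and 8.38 in sham and 9.01, 8.90 and 8.82 in CBDL kidney, and 8.51, 8.46 and 8.72 in prefed kidney. All CBDL arrays were above the rest, with a rise of 0.52 (SE 0.11, adjusted p = 0.00607). Flt4 (VEGFR3), the receptor for VEGF-C and VEGF-D on lymphatic endothelium, rose by 0.41 (adjusted p = 0.0209), and the call ended without sham_160, CBDL_164 or CBDL_170 (adjusted p up to 0.0648), with only the 6 arrays compared, and under median centring. The remaining ligands and partners were not called, among them Vegfc (-0.04), Vegfd (0.07), Pgf (0.14), Nrp1 (0.24, adjusted p = 0.114), Angpt2 (0.22), Tie1 (0.02) and Ptprb (0.02).

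Genes of sprouting and tip cells split into both directions, 3 up and 2 down of 10 with a median of 0.01. Esm1 (endocan), a proteoglycan secreted by tip cells and known as a VEGF-induced gene, read 8.59, 8.99 and 8.47 in sham, 6.66, 7.57 and 7.05 in CBDL and 7.95, 7.75 and 7.83 in prefed kidney. The 3 groups were fully separate in the same order as for Kdr. Esm1 fell 3.01-fold after ligation (-1.59, SE 0.22, adjusted p = 0.000647). Apln, given above, was the other gene of this list that fell.

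Pdgfb, which endothelium secretes to recruit pericytes, read 7.64, 7.94 and 7.43 in sham, 8.88, 9.33 and 8.69 in CBDL and 7.85, 7.84 and 7.94 in prefed kidney. It was raised on all CBDL arrays, and the prefed arrays overlapped sham (CBDL minus sham 1.30, SE 0.18, adjusted p = 0.00064). Unc5b, a netrin receptor, rose by 1.06 (adjusted p = 0.000697). Cxcr4, the receptor of CXCL12 that is also abundant on leukocytes, rose by 0.86 (adjusted p = 0.00551).

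Of 25 measured pan-endothelial genes, 5 rose, 0 fell and 20 were not called after ligation, with a median change of 0.04. At an unadjusted p under 0.05 there were 12 of them, against 7379 of 22180 genes. Without norUDCA_CBDL_172 the number that fell was 1. Those that rose were Ecscr (0.94, adjusted p = 0.00041), a regulator of endothelial chemotaxis, Mcam (0.79, adjusted p = 0.000452), an adhesion molecule of endothelium and pericytes, Fli1 (0.74, adjusted p = 0.00112), an ETS factor of endothelial and blood cells, Calcrl (0.61, adjusted p = 0.00689), the receptor subunit for adrenomedullin, and Cd34 (0.52, adjusted p = 0.0104), a sialomucin of capillaries and progenitors. Fli1 read 9.13, 9.47 and 9.16 in sham, 10.05, 9.91 and 10.02 in CBDL and 9.56, 9.49 and 9.56 in prefed kidney. Its 3 groups did not overlap and CBDL was highest, the reverse of the order of Kdr. Tie1, an orphan receptor that partners TEK (0.02, adjusted p = 0.941), and the ETS factor Erg (-0.02, adjusted p = 0.945) were among the 20.

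By vascular bed, 1 of 8 glomerular endothelial genes rose and 0 fell, with a median of -0.11. That gene was Plat, tissue plasminogen activator (1.27, adjusted p = 0.0002). The number that rose was 2 without sham_159 or CBDL_165, and the number that fell was 1 without sham_158 or CBDL_170. Of 8 peritubular and vasa recta genes, 1 rose and 2 fell, with a median of -0.07. Cd36, a fatty acid transporter of capillaries, macrophages and tubules, fell by 1.39 (adjusted p = 0.00237). Igfbp3, a carrier of insulin-like growth factors, fell by 0.56 (adjusted p = 0.00339). Igf1 rose by 0.60 (adjusted p = 0.00526).

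Among 13 arterial and Notch genes 1 rose and 1 fell, with a median of -0.04. The Notch ligand Jag1 rose by 0.88 (adjusted p = 0.00844), and the chemokine Cxcl12 fell by 0.76 (adjusted p = 0.0117). Without CBDL_170 the number of genes of this list that fell was 3. Of 6 lymphatic genes 2 rose and 0 fell, with a median of 0.24: Flt4 and Pdpn (0.90, adjusted p = 0.00116), a mucin of lymphatic endothelium that podocytes also carry. Without sham_160 or CBDL_164 the number that rose was 1, and without sham_160 the number that fell was 1.

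Of 15 measured genes of the hypoxia-inducible factor system, 3 rose and 4 fell, with a median of -0.17. Ddit4, an inhibitor of mTORC1, rose by 1.70 (adjusted p = 0.000396). Car9, a carbonic anhydrase and classical hypoxia target, fell by 0.98 (adjusted p = 0.00205). Vegfa, given above, is also in this list and fell by less (-0.43). Hif1a (0.56, adjusted p = 0.00475) and the glucose transporter Slc2a1 (0.56, adjusted p = 0.00704) rose on their brighter feature. Each has a second feature with little change (0.08 and -0.06), and with the mean of both features neither was called (adjusted p = 0.089 and 0.0936). The second features were dim, with mean log2 signals of 4.94 and 5.32 against 9.65 and 10.06 for the brighter ones. Both lay below the array medians, where a change may not be seen. Ndrg1, a stress-induced gene, was not called on its brighter feature (-0.20), but its other feature differed by -0.82 and the mean of both fell by 0.51 (adjusted p = 0.00948). Pgk1, a glycolytic enzyme (-0.53, adjusted p = 0.00818), and Egln1, an oxygen-sensing prolyl hydroxylase (-0.33, adjusted p = 0.0389), completed those that fell. Both were named with their values known. The Egln1 call ended without any 1 of 7 arrays (sham_158, sham_160, the 3 CBDL arrays, norUDCA_CBDL_172 or norUDCA_CBDL_179; adjusted p up to 0.113).

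In the endoglin and BMP receptor pathway, 5 of 14 genes rose and 0 fell, with a median of 0.30. Tgfbr2, the type II TGF-beta receptor, read 9.47, 9.39 and 9.45 in sham, 10.18, 10.26 and 10.16 in CBDL and 9.74, 9.49 and 9.68 in prefed kidney. The 3 groups were separate with CBDL highest (CBDL minus sham 0.77, adjusted p = 0.000459). The BMP target genes Id3 (0.86, adjusted p = 0.00154) and Id1 (0.70, adjusted p = 0.00556) rose. The type II BMP receptor Bmpr2 (0.37, adjusted p = 0.017) and the shared mediator Smad4 (0.35, adjusted p = 0.0492) also rose. Without CBDL_164, 3 genes of this list rose (Bmpr2 adjusted p = 0.0567), and the Smad4 call ended without any 1 array except norUDCA_CBDL_175 (adjusted p up to 0.137).

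Genes of endothelial activation had the largest median of the 10 vascular lists, 0.35, with 4 of 9 up and 0 down. Vcam1, a leukocyte adhesion molecule that injured tubules can also express, read 7.39, 7.84 and 7.57 in sham, 10.26, 9.89 and 9.88 in CBDL and 9.03, 9.40 and 9.25 in prefed kidney. It was highest on all CBDL arrays, still raised on all prefed arrays, and 5.32-fold higher in CBDL than in sham kidney (2.41, SE 0.16, adjusted p = 2.5e-05). Selp, the P-selectin of endothelium and platelets, rose by 1.47 (adjusted p = 0.000123). Icam1, another leukocyte adhesion molecule, rose by 1.07 (adjusted p = 0.00187) and Vwf, the von Willebrand factor stored in endothelium, by 0.49 (adjusted p = 0.0101). Without norUDCA_CBDL_172 the number that fell was 1.

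**Figure D4:**
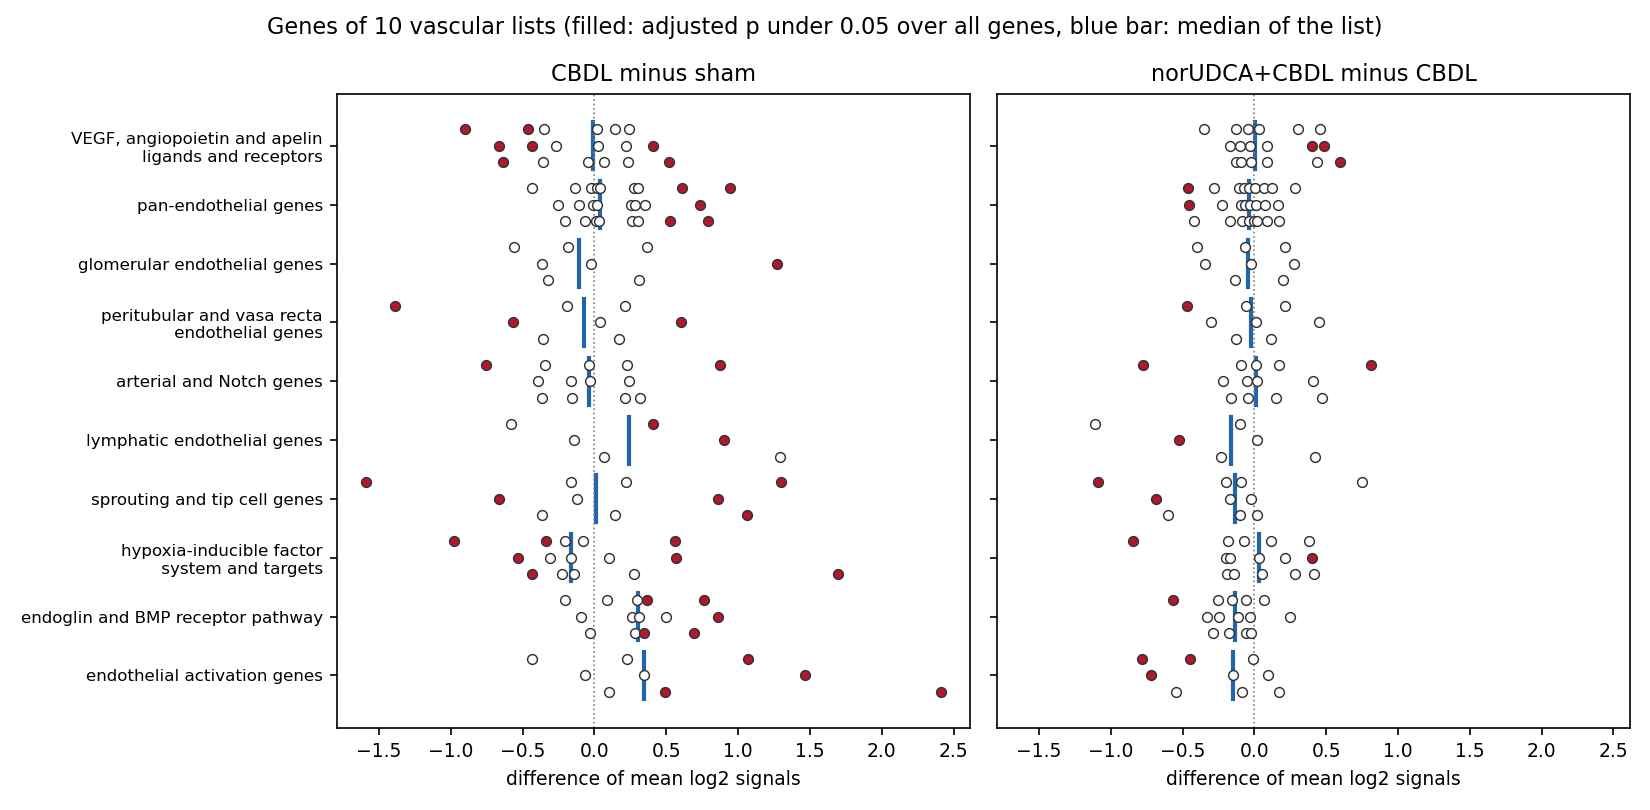
Difference of mean log2 signals for each measured gene of 10 vascular lists in CBDL minus sham and norUDCA_CBDL minus CBDL. Filled points have an adjusted p under 0.05 and blue bars are list medians. In CBDL minus sham the activation list has the highest median (0.35) and the hypoxia list the lowest (-0.17). Filled points there lie on both sides of 0 in the VEGF, peritubular, arterial, sprouting and hypoxia lists.

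Markers of other kidney and blood cells changed across the same arrays. All 10 macrophage and myeloid genes rose after ligation (median 2.32), and those with the lowest p were Ctss (2.88), Laptm5 (1.57) and C1qc (2.18). Their summed signal ran from 10.73 to 11.2 in sham, 12.46 to 13.38 in CBDL and 11.73 to 11.84 in prefed kidney, as log2. All 10 proximal tubule genes fell (median -1.73), among them Slc22a12 (-2.11), Slc17a3 (-2.23) and Slc6a19 (-1.54), with summed signals of 15.54 to 15.62, 13.76 to 14.64 and 15.19 to 15.24. The summed signal of the 25 pan-endothelial genes was 13.13 to 13.36, 13.44 to 13.63 and 13.4 to 13.46. The part of these changes in the results on Kdr, Vegfa, Pecam1, Eng and the other named genes was not tested.

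Of the cells that make VEGF-A or sit beside the endothelium, 7 podocyte genes were measured, with 1 up (Plce1, 0.82) and 2 down (Clic5, -0.52, and Nphs1, -0.40), and a summed signal of 11.17 to 11.34 in sham, 11.08 to 11.24 in CBDL and 11.27 to 11.31 in prefed kidney. The Nphs1 call ended without any 1 of 5 arrays (the 3 sham arrays, CBDL_164 or CBDL_165; adjusted p up to 0.1). Mural and mesangial genes rose in 5 of 9 cases with 0 down (median 0.51), among them Pdgfrb (1.06), Rgs5 (0.91) and Notch3 (0.51), and their summed signal was 11.76 to 12.16, 12.48 to 12.69 and 12.25 to 12.35. Of 6 platelet genes 2 rose, Itgb3 (1.07) and Pf4 (0.80), and 0 fell, with summed signals of 8.355 to 8.433, 8.467 to 9.005 and 8.351 to 8.647. Of 8 thick limb and distal tubule genes 4 fell (median -0.33), and of 8 collecting duct genes 2 fell (median -0.33), with 0 up in both. The first count was 2 without any 1 of the sham arrays, CBDL_165 or norUDCA_CBDL_175, and the second was 1 without any 1 array other than CBDL_164 and norUDCA_CBDL_172. Without CBDL_170, 2 podocyte genes rose. The number of mural genes that fell was 1 without sham_160 or CBDL_170, and of platelet genes 1 without CBDL_164. The part of these cells in the results was not tested either.

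With norUDCA prefeeding before ligation, Kdr and Vegfa were higher than in ligated kidney without it. Of the 10 genes, 2 rose and 0 fell in norUDCA_CBDL minus CBDL, against 3.61% and 3.2% of all genes (6.8% in either direction). Kdr was higher by 0.60 (SE 0.13, 95% interval 0.31 to 0.89, 1.51-fold, adjusted p = 0.0253). Vegfa was higher by 0.40 (SE 0.09, 95% interval 0.20 to 0.60, 1.32-fold, adjusted p = 0.0279). Both calls ended when any 1 of CBDL_164, CBDL_165, norUDCA_CBDL_172, norUDCA_CBDL_175 or norUDCA_CBDL_179 was left out (adjusted p up to 0.0965 for Kdr and 0.105 for Vegfa). They also ended when the 3 arrays that stood apart were left out (0.50, adjusted p = 0.183 for Kdr, and 0.45, adjusted p = 0.108 for Vegfa). In that fit limma called 0 of all genes in this comparison, so the loss is not particular to Kdr and Vegfa. With only the 6 arrays compared in the fit neither was called (adjusted p = 0.0599 and 0.0513). Quantile normalization also ended the Vegfa call (0.31, adjusted p = 0.0555), and under it Emcn fell (-0.32, adjusted p = 0.0433). The arrays themselves did not overlap for either Kdr or Vegfa.

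The angiopoietin receptor and the second VEGF receptor were also higher but were not called. Tek was higher by 0.45 (SE 0.13, 95% interval 0.17 to 0.74, adjusted p = 0.0674) and Flt1 by 0.43 (SE 0.13, 95% interval 0.15 to 0.72, adjusted p = 0.0752), and for both all prefed arrays were above all CBDL arrays. Without CBDL_170 both passed (Tek 0.59, adjusted p = 0.0128, and Flt1 0.53, adjusted p = 0.0344). No other single array left out gave a call, with adjusted p up to 0.207 for Tek and 0.223 for Flt1. Of 8 other settings 4 gave a call for each, and the adjusted p went up to 0.308 and 0.228. Emcn was lower by 0.23 (95% interval -0.45 to -0.01, adjusted p = 0.24) and Pecam1 by 0.17 (95% interval -0.38 to 0.03, adjusted p = 0.368), again with arrays that did not overlap. In all, 6 of the 10 genes had no overlap, against 24.2% of all genes, with 4 higher (11.6%) and 2 lower (12.6%).

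The remaining 4 genes overlapped between CBDL and prefed kidney. Ehd3 differed by 0.21 (95% interval -0.05 to 0.48), Cdh5 by -0.09 (95% interval -0.29 to 0.11), Eng by 0.07 (95% interval -0.14 to 0.28) and Plvap by 0.01 (95% interval -0.27 to 0.30), with adjusted p of at least 0.39. The signs for Eng and Plvap turned under quantile normalization (both -0.09). The median difference of the 10 genes was 0.14, beside -0.0034 for all genes. This comparison and the one of CBDL with sham share the CBDL arrays, so opposite signs in the 2 are not independent.

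The lists are read here beside 3.61% of all genes up and 3.2% down. Among VEGF, angiopoietin and apelin genes 3 of 18 rose and 0 fell with prefeeding: Kdr, Vegfa and Vegfb (0.49, SE 0.11, adjusted p = 0.0294). The Vegfb call ended without any 1 of the same 5 arrays. Angpt1 (0.30, adjusted p = 0.0949), Esm1 (0.75, adjusted p = 0.0715) and Nrp2 (-0.35, adjusted p = 0.0868) did not overlap between these groups and were not called. Pdgfb fell by 1.09 (SE 0.18), with an adjusted p of 0.0105, or 0.0512 when norUDCA_CBDL_175 was left out. Unc5b was the other of 10 sprouting genes that fell (-0.69, adjusted p = 0.024), and the list median was -0.13.

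Of the pan-endothelial genes 2 fell, Mcam (-0.46, adjusted p = 0.0259) and Fli1 (-0.45, adjusted p = 0.0396), 0 rose and the median was -0.04. Activation genes gave 3 down, Vcam1 (-0.78, adjusted p = 0.0192), Selp (-0.72, adjusted p = 0.02) and Vwf (-0.45, adjusted p = 0.0404), with 0 up and a median of -0.15. Tgfbr2 was the 1 gene called in the endoglin and BMP list (-0.57, adjusted p = 0.0124), and its call ended without norUDCA_CBDL_175 (adjusted p = 0.054). Cxcl12 rose (0.81, adjusted p = 0.0254) and Jag1 fell (-0.77, adjusted p = 0.0406) among the arterial genes. In the hypoxia list Vegfa rose and Ddit4 fell (-0.84, adjusted p = 0.0422). Pdpn (-0.53, adjusted p = 0.0487) fell in the lymphatic list and Igf1 (-0.47, adjusted p = 0.0464) in the peritubular list, and 0 glomerular genes were called. Apart from Pdgfb and Tgfbr2, each call in this paragraph and the one before ended on leaving out any 1 of at least 4 arrays, with norUDCA_CBDL_175 and norUDCA_CBDL_179 among them every time and adjusted p up to 0.165. Without CBDL_170, 1 peritubular, 2 arterial and 3 hypoxia genes rose, and without CBDL_165, 1 sprouting gene rose.

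The marker genes of other cells again moved across these arrays. With prefeeding 9 of 10 macrophage genes fell (median -1.12) and 9 of 10 proximal tubule genes rose (median 1.07). Leaving out 1 array gave 2 to 10 macrophage genes down (2 to 5 without CBDL_164, CBDL_165 or any 1 prefed array) and 1 to 9 proximal tubule genes up (1 or 2 without CBDL_164 or any 1 prefed array). Mural genes gave 2 down, Pdgfrb (-0.52) and Notch3 (-0.46), and 0 up. Podocyte and platelet genes gave 0 calls, and 2 of 8 distal and 2 of 8 collecting duct genes rose. The mural count was 0 without CBDL_164 or any 1 prefed array and 1 without sham_158, CBDL_165 or CBDL_170. The distal count was 1 without any 1 array other than sham_159. The collecting duct count was 0 without any 1 prefed array and 1 without CBDL_165. Without CBDL_170, 2 podocyte genes rose, and without CBDL_170 or sham_159, 1 platelet gene fell. The part of these changes in the results on the endothelial genes was not tested.

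**Figure D5:**
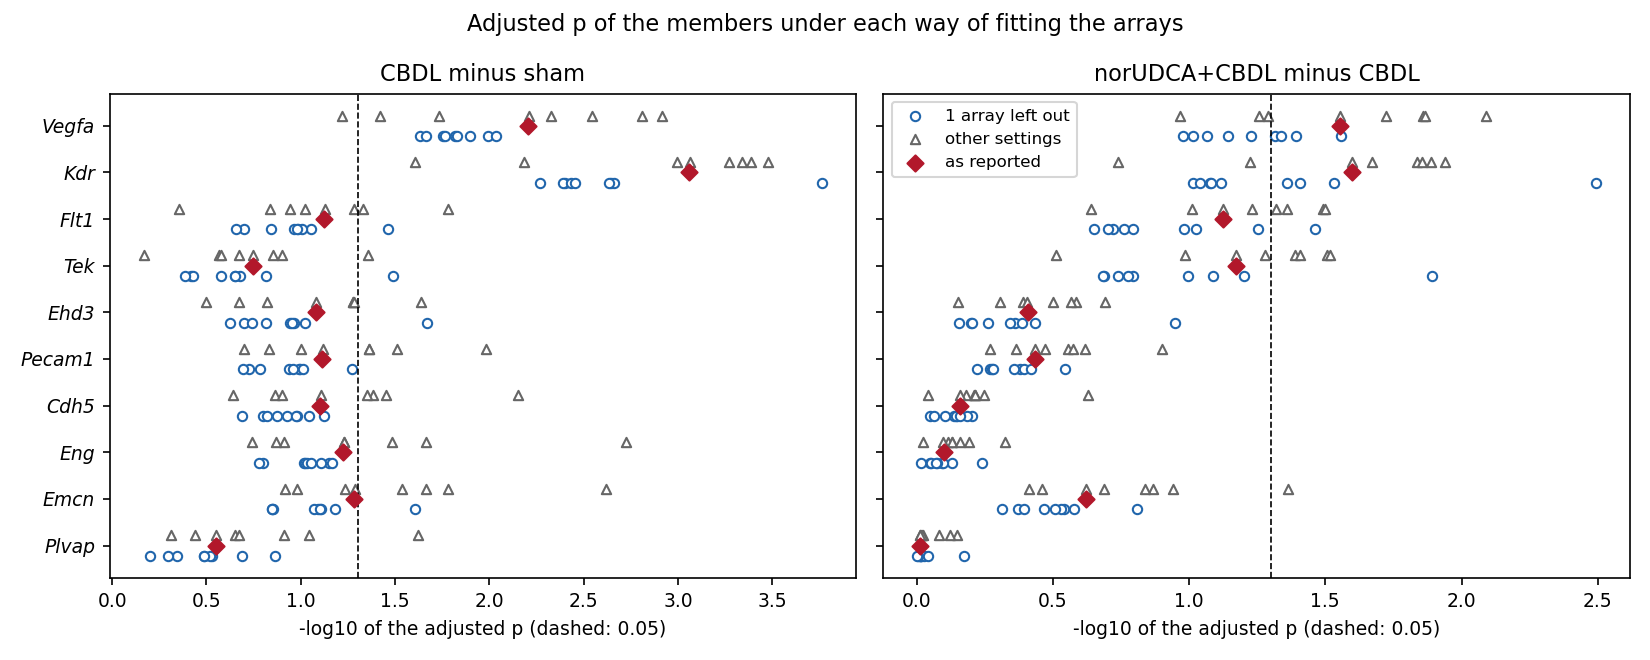
Adjusted p of each of the 10 genes, as -log10, in CBDL minus sham and norUDCA_CBDL minus CBDL. Diamonds are the reported fit, circles leave out 1 array, triangles are other settings, and the dashed line marks 0.05. In CBDL minus sham Kdr lies beyond the line under every setting, while every other gene, Vegfa included, lies on both sides of it. In norUDCA_CBDL minus CBDL Kdr, Vegfa, Flt1, Tek and Emcn lie on both sides.

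Prefed ligated kidney was then set against sham kidney, the comparison that shows what remained different when ligation followed norUDCA. Of the 10 genes 0 were called by limma, against 3.18% of all genes (1.82% rose and 1.37% fell), and 2 of 10 and 3626 of 22180 had an unadjusted p under 0.05. Kdr was lower on every prefed array than on every sham array, by -0.30 (SE 0.13, 95% interval -0.59 to -0.01, adjusted p = 0.282). Eng was higher on every prefed array, by 0.35 (SE 0.09, 95% interval 0.14 to 0.56, adjusted p = 0.0865). It passed the threshold under 4 of 8 other settings (adjusted p from 0.0262 to 0.0465), and in the rest the adjusted p went up to 0.261. Eng was not called with any 1 array left out (adjusted p from 0.0801 to 0.243). Tek (0.19, adjusted p = 0.507) and Cdh5 (0.16, adjusted p = 0.418) were also higher with no overlap. That made 4 of 10 genes without overlap, against 22.5% of all genes, with 3 higher (8.96%) and 1 lower (13.5%).

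Vegfa differed by -0.03 (95% interval -0.23 to 0.16, adjusted p = 0.886), and the sign turned under quantile normalization (0.06). The other 5 differences were Flt1 0.08, Emcn 0.08, Pecam1 0.09, Ehd3 -0.11 and Plvap 0.23, with adjusted p of at least 0.414. The median was 0.08, beside -0.048 for all genes. In the VEGF list 0 of 18 genes were called.

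In the vascular lists 5 genes were called between prefed and sham kidney, to be read beside the 3.18% of all genes called. Vcam1 (1.63, adjusted p = 0.00118) and Selp (0.75, adjusted p = 0.0257) were higher in prefed kidney, as were Plat (0.93, adjusted p = 0.00917) and Ecscr (0.52, adjusted p = 0.0452). Igfbp3 was lower (-0.45, adjusted p = 0.0484). Single arrays ended the calls of Plat (without norUDCA_CBDL_179, adjusted p = 0.0545), Selp (5 arrays), Ecscr (8 arrays) and Igfbp3 (8 arrays). Beside them 8 of 10 macrophage genes and the mural gene Rgs5 (0.73) were higher, and 1 of 10 proximal tubule genes, Slc17a3 (-1.15), was lower. The macrophage count was 3 to 5 without any 1 of sham_158, sham_160 or the prefed arrays. Rgs5 was not called without norUDCA_CBDL_172 or norUDCA_CBDL_179, and the mural count was 2 without CBDL_165. The proximal tubule count was 0 without any 1 array other than CBDL_165 (3) and CBDL_170 (2). The part of these cells in the results was not tested. Among the vascular lists, calls were gained in the VEGF list without norUDCA_CBDL_175 (1 down), in the peritubular list without CBDL_165 (2 down), in the hypoxia list without CBDL_165 (1 up) or CBDL_170 (1 down), in the sprouting list without CBDL_164, CBDL_165 or norUDCA_CBDL_175 (1 down), and in the endoglin and BMP list without CBDL_170 (1 up).

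The genes most like Kdr and Vegfa over the 9 arrays were found from the root mean square (RMS) difference of signals after each gene was centred on its own mean. For Kdr, whose own RMS deviation was 0.397, they were Lin52 (0.0479), Fads3 (0.059), Ndufa9 (0.0596), Ahcyl2 (0.063) and Frg2f1 (0.0654). For Vegfa, with an RMS deviation of 0.203, they were Tmem147 (0.0528), Ice2 (0.0647), Pptc7 (0.0652), Snrnp27 (0.0667) and Ndufb9 (0.0682). None of these 10 genes is in the vascular lists. The likeness is a description over 9 arrays that share the group differences of the whole series.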

How the data were processed

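Kidney RNA of 9 mouse samples in 3 groups of 3 was measured on whole-transcript arrays after TRIzol extraction, per the labels' protocols. The deposited values are log2 signals that the authors made with RMA in Partek 6.6, per the submitters' processing notes. The sources used here do not state the array model or its genome build.

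Of 41345 features, 23521 carried 1 symbol, 1814 several and 16010 none. The brightest feature per gene over the 9 arrays was kept, which left out 1341 and gave 22180 genes. No gene was filtered. limma 3.58.1 in R 4.3.3 fitted 1 mean per group over all 9 arrays (6 residual and 3.77 prior degrees of freedom), and genes with a Benjamini-Hochberg adjusted p under 0.05 over all 22180 were called. "Rose" and "fell" mean called. Fold changes are 2 to the power of the difference of mean log2 signals. The precision is limited by the number of arrays, and the median SE of CBDL minus sham was 0.136. The script was tested on simulated data.

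The 10 genes, the 10 vascular and 7 marker lists and the tests were chosen with earlier results of these data known. The rule names the 10 genes, up to 5 called genes per vascular list and up to 3 per marker list, by lowest p in CBDL minus sham, and the 5 genes most like each called one. Umod and Lrp2 were named as a check of the tissue. Values printed for list genes that were not called, and Pgk1 and Egln1, were chosen after they were seen. Some genes of the lists were not analysed here. Alternatives were an intensity trend, array weights, only the 6 arrays compared, quantile normalization, median centring, no dim genes (mean log2 signal up to 5.2), the mean of a gene's features, each array left out and, added after seeing the data, sham_159, CBDL_165 and norUDCA_CBDL_172 left out together.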

Additional observations from a re-analysis of the deposited data

How the results depend on the processing

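The number of the 10 genes called in CBDL minus sham, 2 as reported, was 6 with an intensity trend, 5 with array weights, 6 after quantile normalization, 5 after median centring and 7 without dim genes (mean log2 signal up to 5.2), and 2 to 5 with 1 array left out. In norUDCA_CBDL minus CBDL it was 2 as reported, 4 with a trend, array weights, median centring or no dim genes, 0 with only the 6 arrays compared (5 at an unadjusted p under 0.05), 0 without the 3 arrays that stood apart, and 0 to 4 with 1 array left out. In norUDCA_CBDL minus sham it was 0 as reported and 1, each time Eng, with a trend, array weights, quantile normalization or no dim genes. Over all genes, 4844 called in CBDL minus sham became 2999 without the 3 arrays that stood apart and 3794 to 4604 with 1 array left out. The 1509 called in norUDCA_CBDL minus CBDL became 912 with only the 6 arrays compared and 278 to 2043 with 1 array left out. Without the 3 arrays that stood apart limma called 0, with 3527 at an unadjusted p under 0.05. The 706 called in norUDCA_CBDL minus sham became 1638 with array weights, 96 without the 3 arrays, and 156 to 822 with 1 array left out. The cause was not tested, except that leaving out arrays leaves fewer samples. Median centring moved the split of calls to 1224 up and 646 down, from 800 and 709, in norUDCA_CBDL minus CBDL, and to 417 and 506, from 403 and 303, in norUDCA_CBDL minus sham. With only the 6 arrays compared the former was 404 up and 508 down.

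Signs turned for differences that were not called. Plvap in norUDCA_CBDL minus CBDL was -0.0943 after quantile normalization, -0.0842 without the 3 arrays, and -0.0598 to 0.126 with 1 array left out, below 0 without CBDL_164, CBDL_165, norUDCA_CBDL_172 or norUDCA_CBDL_179. Eng in the same comparison was -0.0854 after quantile normalization. Vegfa in norUDCA_CBDL minus sham was 0.0621 after quantile normalization, 0.0358 without the 3 arrays and -0.0694 to 0.0158 with 1 array left out, above 0 without norUDCA_CBDL_172. The within-array changes of Kdr against Cdh5, Pecam1 and Flt1 kept their signs with any 1 array left out. No paired analysis was possible because the groups share no replicate numbers. With 3 arrays a group, differences much smaller than the intervals given could not be seen, and samples were not tested for outliers at that size.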
